A study of Mus musculus with 6 samples.

Results

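The chemokine genes followed here act mainly on leukocytes other than neutrophils, and were measured in cells of the mouse mammary tumour 2208L, carried by Balb/c mice. They are the CC chemokines Ccl2, Ccl5, Ccl7 and Ccl20, the CXC chemokines Cxcl9, Cxcl10, Cxcl12 and Cxcl16, and the CX3C chemokine Cx3cl1. They were chosen by gene name, and all 9 were found among the 54532 genes of the count table. RNA sequencing covered 6 libraries from untreated cells. In the CTC group, 3 libraries held tumour cells from the blood that were propagated before RNA was taken. In the PT group, 3 libraries held tumour cells enriched from the dissociated primary tumours of the same mice, so that replicates 1, 2 and 3 of each group were matched. No source used here gives the age, sex or genotype of the mice, and p-values measure only the spread between these libraries. Propagation was named for CTC only, so the handling of the cells and the group cannot be told apart.

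Chemokines are small secreted proteins that guide leukocytes along concentration gradients through G protein-coupled receptors. Their families are named after the spacing of the first cysteines in the protein. Ccl2 and Ccl7 attract monocytes through Ccr2, Ccl5 attracts T cells and monocytes, and Ccl20 attracts cells that carry Ccr6. Cxcl9 and Cxcl10 are interferon-induced ligands of Cxcr3 on activated T and NK cells. Cxcl12 binds Cxcr4 and the scavenging receptor Ackr3. Cxcl16 and Cx3cl1 differ from the others in being made as membrane-anchored proteins, which the proteases Adam10 and Adam17 can release.

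The promoters of 3 members are shown first, those of Cxcl10 and Ccl20 because their levels spread most between libraries among the tested members, and that of Cxcl9 because it lies beside Cxcl10. RefSeq promoter windows (build GRCm38.p6) were matched for 5 of the 9 genes. The 250 bases before the start are printed 5′ to 3′ for Cxcl10 (chr5:92348890-92349139, minus strand), its neighbour Cxcl9 (chr5:92328080-92328329, minus strand) and Ccl20 (chr1:83116516-83116765, plus strand). Capitals mark every match, on either strand, to the interferon response core (a pair of GAAA copies 2 bases apart), the GAS motif TTCNNNGAA, the AP-1 motif TGANTCA or the NF-kB consensus.
Cxcl10: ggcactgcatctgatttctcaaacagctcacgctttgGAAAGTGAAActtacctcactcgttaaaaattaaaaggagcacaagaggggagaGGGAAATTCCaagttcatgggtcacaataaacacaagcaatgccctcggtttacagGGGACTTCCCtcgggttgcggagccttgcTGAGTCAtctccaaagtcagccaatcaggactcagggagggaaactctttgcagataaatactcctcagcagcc
Cxcl9: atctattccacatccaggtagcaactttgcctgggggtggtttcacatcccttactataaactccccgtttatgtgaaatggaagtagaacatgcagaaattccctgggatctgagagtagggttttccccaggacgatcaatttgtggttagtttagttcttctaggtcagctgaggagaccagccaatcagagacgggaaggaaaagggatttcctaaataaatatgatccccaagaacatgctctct
Ccl20: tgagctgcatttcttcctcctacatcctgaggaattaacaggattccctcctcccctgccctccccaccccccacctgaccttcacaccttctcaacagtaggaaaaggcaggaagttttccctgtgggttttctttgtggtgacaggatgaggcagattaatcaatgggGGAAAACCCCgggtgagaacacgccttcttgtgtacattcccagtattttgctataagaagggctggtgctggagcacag

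The Cxcl10 window held 1 interferon response core, 213 to 204 bases before the start, and 1 AP-1 motif. It also held 2 NF-kB matches, which began 159 and 103 bases before the start. The Ccl20 window held 1 NF-kB match, 80 to 71 bases before the start, and the Cxcl9 window held none of the 4 motifs. No 2 of these matches overlapped. The windows of Cxcl12 and Cx3cl1, which are not printed, also held none of the 4 motifs. Of 32851 windows of this length, 2.98% held the interferon response core, 3.9% an NF-kB match, 6.75% an AP-1 motif and 7.02% a GAS motif. Matches describe the letters only, and binding was not measured.

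The labelled cell type was checked against its markers before the members were read. Library totals lay between 23845953 and 27897320 counts. The 8 epithelial markers summed to between 2210 and 5334 CPM, lowest in CTC replicate 3. Of these, Krt19 had 0 counts in replicate 3 of both groups. It had 2452 and 1969 counts in CTC replicates 1 and 2, and 129 and 472 in PT replicates 1 and 2. The 10 pan-leukocyte markers summed to between 0.782 and 3.51 CPM, and 4 of the 10 were at 0 throughout. Ptprc (CD45) had 2, 0 and 0 counts in the CTC libraries and 7, 2 and 1 in the PT libraries. Lcp1 was higher in every CTC library (55, 4 and 8 counts) than in the PT libraries (0, 1 and 0), and Coro1a reached 62 counts in CTC replicate 2. CTC replicate 3 stood apart in its interferon-stimulated and adipocyte marker transcripts and had the highest fibroblast marker sum, mostly from Col3a1. Those values are given beside the members they touch.

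Cxcl16 and Cx3cl1 were the most abundant of the 9 transcripts per length. Levels are given as CPM, counts scaled to library size with TMM factors, and between genes as CPM per kilobase of the deposited gene length. Over the 6 libraries Cxcl16 was at 47.4 ± 28.7 CPM per kilobase (SD, n = 6), with a range of 21.3 to 99.2. Cx3cl1 followed at 14.5 ± 2.11 (12.2 to 17.2), and was below Cxcl16 in 6 of 6 libraries without overlap of their ranges. Per length, Cxcl16 lay above 90.6% of the 13874 genes that passed the filter on low counts, and Cx3cl1 above 71.5%. The remaining members were Ccl2 at 2.35 ± 4.62, Ccl20 at 1.96 ± 2.46, Ccl5 at 1.91 ± 1.21, Cxcl10 at 1.66 ± 2.16, Cxcl12 at 1.65 ± 1.14, Ccl7 at 0.668 ± 1.49 and Cxcl9 at 0.0333 ± 0.0488 CPM per kilobase. From Ccl2 downward each gene overlapped the next in range, so neighbours in this order are not resolved beyond the spread between libraries. Cxcl9 (0 to 0.117) lay below the whole range of Ccl5 and Cxcl12. Its highest value, from 9 counts, was not resolved from the lowest of Ccl20 (0.117, from 4 counts) or Cxcl10 (0.147, from 8 counts). Cxcl16 was the most abundant member in every library and made up from 34.7% of the summed level per kilobase, in CTC replicate 3, to 78.0% in CTC replicate 1.

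**Figure D1:**
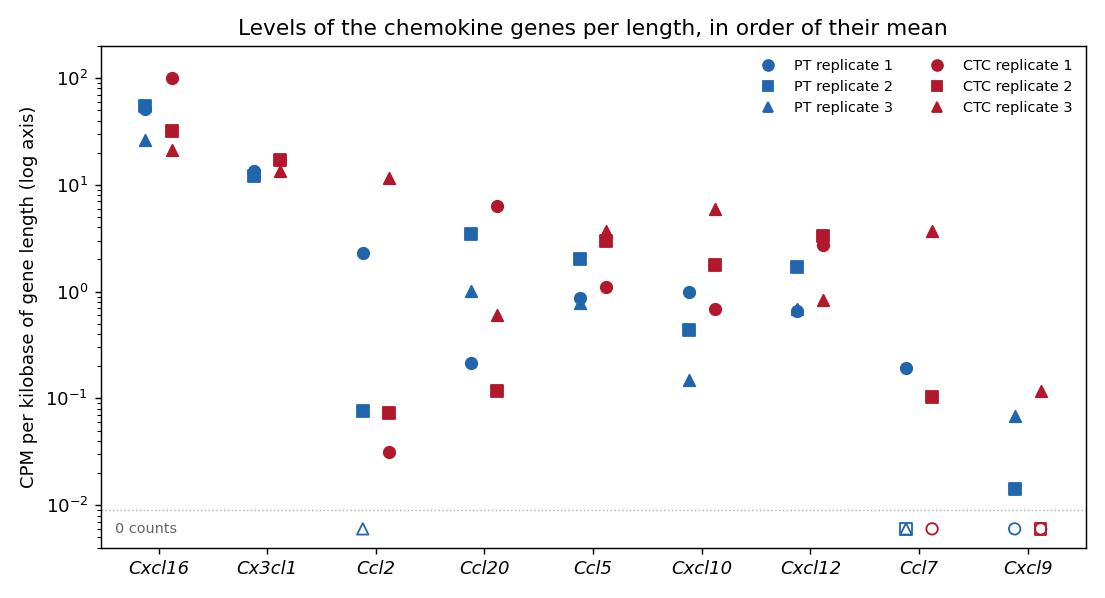
CPM per kilobase of gene length (log axis) for the 9 chemokine genes, ordered by their mean over 6 libraries; filled symbols are single CTC (red) and PT (blue) libraries and open symbols below the dotted line are libraries with 0 counts. Cxcl16 (21.3 to 99.2) and Cx3cl1 (12.2 to 17.2) lie above the other 7, whose ranges overlap from each gene to the next.

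Of the 9 members, 6 passed the filter on low counts and were tested between the groups, and none was called. The edgeR quasi-likelihood test called 0 of 13874 genes at an adjusted p under 0.05 (0.0%), and its smallest adjusted p was 0.611. Without adjustment, 919 genes (6.62%) had a p under 0.05, with Cxcl10 the 1 member among them. DESeq2 called 91 genes (0.631% of those with an adjusted p), limma-voom 0 (0.0%) and edgeR without a filter 199 (0.728%), with no member among them. Ccl2 and Cxcl9 had no adjusted p in DESeq2. All 6 tested members had a positive log2 fold change (CTC minus PT), with a median of 0.83, where 54.1% of all tested genes were positive with a median of 0.053. This count held for the main fit only in part of the settings. With the replicate block and by limma-voom, Ccl20 (-0.51 and -0.098) and Cxcl16 (-0.049 and -0.041) were negative. Without CTC replicate 1, 5 of 7 were positive, and without PT replicate 3, 6 of 7. The median was 1.73 without PT replicate 2 and lay between 0.62 and 1.04 without any other single library. Cx3cl1 was the 1 tested member of 6 whose groups did not overlap, and 12.1% of all genes tested lay apart in this way (5.95% with CTC above and 6.16% with CTC below). Each tested member was highest in a CTC library: Ccl20 and Cxcl16 in replicate 1, Cxcl12 and Cx3cl1 in replicate 2, and Ccl5 and Cxcl10 in replicate 3. Over all tested genes, 24.6%, 13.7% and 14.1% were highest in these 3 libraries and 20.4%, 12.6% and 14.7% in PT replicates 1, 2 and 3. Within the matched mice, 3 of 6 members (Ccl5, Cxcl12 and Cx3cl1) were higher in CTC in all 3 mice, against 15.4% of genes tested, and none was lower in all 3, against 15.3%. Ccl2, Ccl7 and Cxcl9 had too few counts for the test and are described by their values. In bulk RNA, fewer cells of a type and less RNA per cell cannot be told apart.

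**Figure D2:**
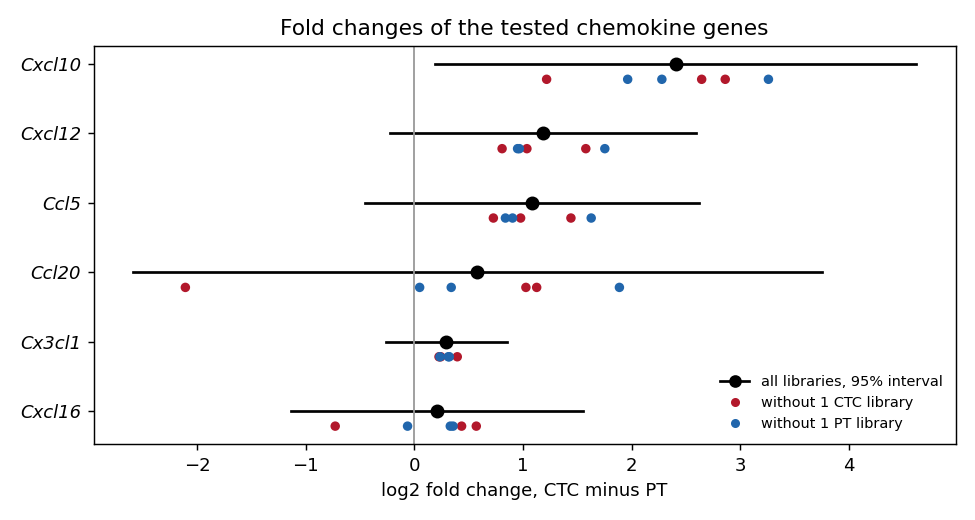
Log2 fold change (CTC minus PT) of the 6 tested members from edgeR; black points and lines are the estimate and its 95% interval, and small points below are the estimates without 1 CTC (red) or 1 PT (blue) library. Cxcl10 has the largest estimate (2.41), and the points of Ccl20 and Cxcl16 fall on either side of 0.

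Cxcl16, the membrane-anchored ligand of Cxcr6, varied as much within the groups as between them. It was at 299.7, 95.8 and 64.4 CPM in CTC replicates 1, 2 and 3 and at 155.6, 164 and 79.1 CPM in PT replicates 1, 2 and 3. CTC replicate 1 stood highest, and the other 2 CTC libraries lay below PT replicates 1 and 2. The group means were 153.3 ± 128 and 132.9 ± 46.8 CPM (SD, n = 3 each), which differed by 0.21 on the log2 scale (SE 0.58, 95% interval -1.14 to 1.55, edgeR adjusted p = 0.933). Its sign was negative with the replicate block (-0.049), without CTC replicate 1 (-0.73) and without PT replicate 3 (-0.063). The gene (chromosome 11, 70453983 to 70459984, GRCm38) shares 552 bases with Zmynd15 on the opposite strand, which had at most 234 counts in a library. Without strand information, reads in that stretch cannot be assigned to either gene.

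Cx3cl1, or fractalkine, was the steadiest member. It was at 67.3, 67.5 and 53.5 CPM in CTC replicates 1, 2 and 3 and at 52.9, 48.1 and 52.5 CPM in PT replicates 1, 2 and 3. Every CTC library was above every PT library, though CTC replicate 3 exceeded PT replicate 1 by a small margin, and with RLE scaling the groups overlapped. The means of 62.8 ± 8.01 and 51.2 ± 2.69 CPM (SD, n = 3 each) differed by 0.29 on the log2 scale (SE 0.24, 95% interval -0.26 to 0.85, edgeR adjusted p = 0.787). Within groups its log2 SD was 0.15, where the median of all tested genes was 0.48, and 1.64% of tested genes had a smaller one. For Ccl20, at 2.27, 97.4% of tested genes had a smaller SD.

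Cxcl12, a homeostatic chemokine of stroma that retains cells carrying Cxcr4, was higher in the CTC library of each mouse. It was at 22.4, 27.1 and 6.77 CPM in CTC replicates 1, 2 and 3 and at 5.33, 13.8 and 5.64 CPM in PT replicates 1, 2 and 3. CTC replicates 1 and 2 were the highest, while CTC replicate 3 lay between the PT values. The ratio of CTC to PT was 4.20 in mouse 1, 1.96 in mouse 2 and 1.20 in mouse 3. The log2 fold change was 1.18 (SE 0.61, 95% interval -0.23 to 2.59), and the adjusted p was 0.726 by edgeR, 0.770 once the mouse was a block and 0.611 by DESeq2. The endothelial marker genes, another possible source of Cxcl12, summed to at most 3.76 CPM in any library. The summed fibroblast markers were 11.6, 84.5 and 194 CPM for CTC replicates 1, 2 and 3, against 88.7, 19.2 and 63.4 CPM for PT replicates 1, 2 and 3. They were lowest in CTC replicate 1, where Cxcl12 was exceeded only by CTC replicate 2. Their part in the Cxcl12 result was not tested.

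**Figure D3:**
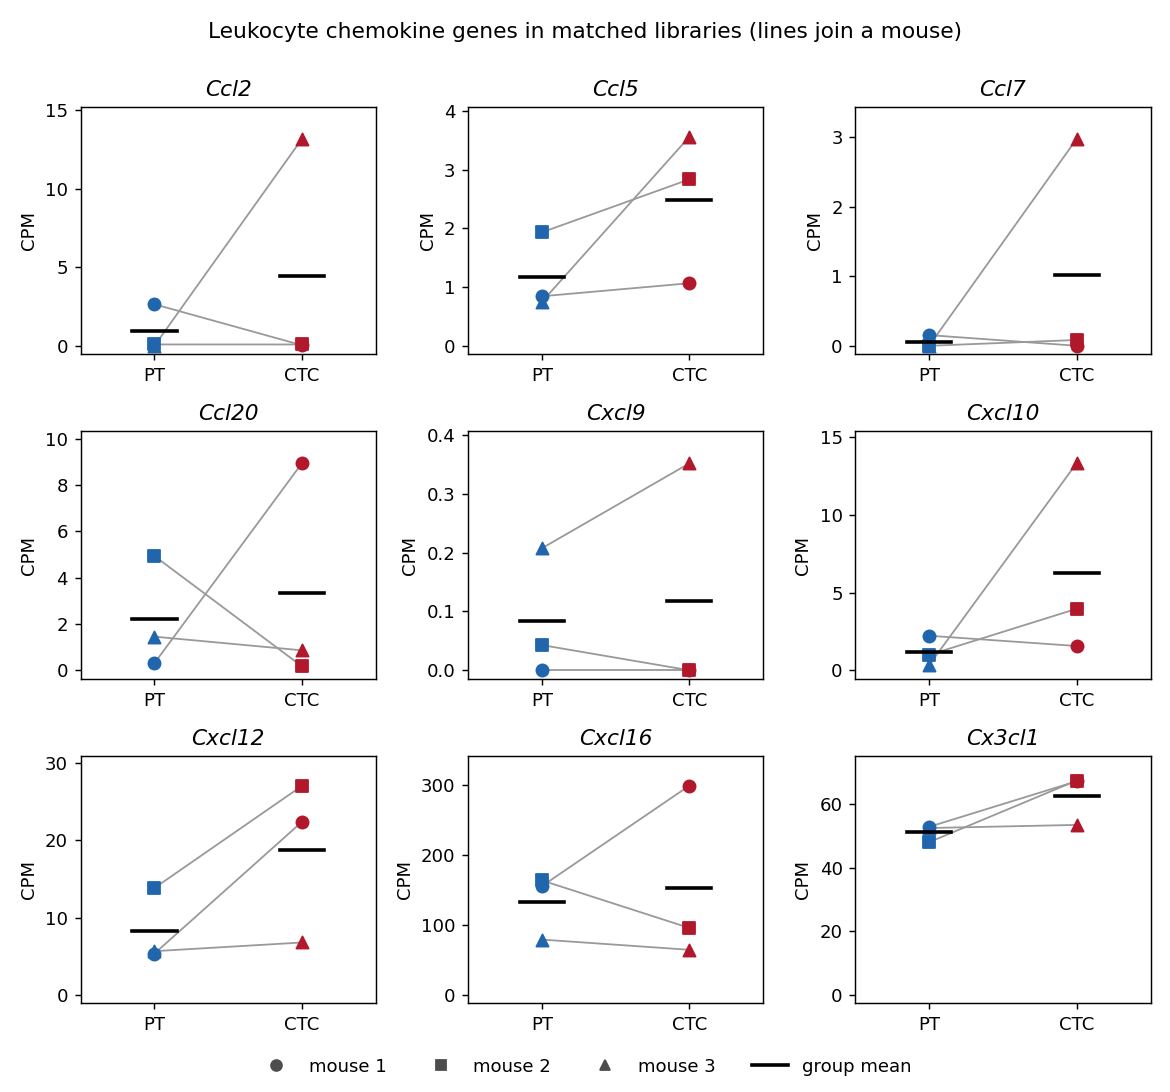
CPM (linear axes from 0) of each chemokine gene in PT (blue) and CTC (red); symbols mark mouse 1, 2 and 3, grey lines join the matched libraries and black bars are group means (n = 3 each). Cxcl12, Ccl5 and Cx3cl1 are higher in CTC in all 3 mice, while the CTC means of Ccl2, Ccl7 and Cxcl10 are set largely by mouse 3.

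Cxcl10, the interferon-induced ligand of Cxcr3, had the largest fold change of the tested members. It was at 1.56, 3.96 and 13.3 CPM in CTC replicates 1, 2 and 3 and at 2.22, 0.987 and 0.332 CPM in PT replicates 1, 2 and 3. CTC replicate 3 was far above the rest, and CTC replicate 1 lay below PT replicate 1. The log2 fold change was 2.41 (SE 0.96, 95% interval 0.19 to 4.62), and the adjusted p was 0.726 by edgeR, 0.774 once the mouse was a block and 0.176 by DESeq2. Without CTC replicate 3 the log2 fold change was 1.22. The matched ratio was 0.703 in mouse 1, 4.01 in mouse 2 and 40.2 in mouse 3. The gene (chromosome 5, 92346638 to 92348889, GRCm38) lies wholly within Art3 on the opposite strand, which had 2 counts over all libraries.

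The 20 interferon-stimulated genes were highest in the same library as Cxcl10. Their CPM summed to 352, 214 and 2589 in CTC replicates 1, 2 and 3 and to 220, 341 and 168 in PT replicates 1, 2 and 3. All 20 were highest in CTC replicate 3, where 14.1% of all tested genes had their maximum. All 20 had a positive log2 fold change (median 2.84, against 0.053 over all genes tested), and edgeR called none (smallest adjusted p = 0.726). Without CTC replicate 3, 11 of the 20 were positive and 9 negative, with a median of 0.098. With no minimum count, edgeR called 10 of the 20, all higher in CTC, against 0.728% of all genes with a count. Among them were Ifi44 (edgeR adjusted p = 0.0056), Gbp3 (0.0083), Oasl2 (0.013) and Bst2 (0.015). Bst2, an antiviral membrane protein, reached 579.8 CPM in CTC replicate 3 against 117.9 CPM or less in the others. Gbp3, a guanylate-binding protein, reached 90.1 CPM in that library against 9.83 CPM or less. In the other 5 libraries the order of Cxcl10 differed from that of the sum: CTC replicate 2 ranked 2 for Cxcl10 but 5 for the interferon-stimulated genes. PT replicate 3 was lowest for both. The part of the interferon-stimulated genes' shift in the Cxcl10 result was not tested.

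Cxcl9 and Cxcl11, which share the receptor of Cxcl10, were near the limit of detection. Cxcl9 had 0, 0 and 9 reads in CTC replicates 1, 2 and 3 and 0, 1 and 5 counts in PT replicates 1, 2 and 3, or at most 0.352 CPM. Counts above the limit that a count of 0 allows (3 counts) were found in replicate 3 of each group only. Cxcl9 lies 18558 bases from Cxcl10, and no group difference in it was detectable at this depth. Counts of Cxcl11 were 7, 3 and 18 for CTC and 1, 8 and 5 for PT, highest in CTC replicate 3 as well.

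Ccl2 and Ccl7 are neighbouring monocyte attractants on chromosome 11. Ccl2 was confined almost entirely to 2 of the 6 libraries, and Ccl7 to 1. Ccl2 had 1, 2 and 337 counts in CTC replicates 1, 2 and 3 and 69, 2 and 0 counts in PT replicates 1, 2 and 3. CTC replicate 3 was at 13.2 CPM, PT replicate 1 at 2.65 CPM and the other 4 libraries at or below 0.0858 CPM. Counts of Ccl7 were 0, 2 and 76 for CTC and 4, 0 and 0 for PT, so that CTC replicate 3 reached 2.97 CPM and no other library more than 0.153 CPM. Both genes thus ranked CTC replicate 3 first. For Ccl2, PT replicate 1 came next, so that its 2 libraries were from different groups and different mice. For Ccl7, the 4 counts of PT replicate 1 were not resolved from the 2 of CTC replicate 2. The difference of mean log2 CPM for Ccl2 was 0.93 (CTC minus PT), with an SD within groups of 3.30, and turned to -1.27 without CTC replicate 3 and to -0.095 without PT replicate 3. For Ccl7 it was 1.58 (SD 2.07), and 0.00069 without CTC replicate 3. Without a filter on low counts edgeR gave Ccl2 an adjusted p of 0.686 and Ccl7 one of 0.250.

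The other CC genes of the same cluster were almost silent. The 2 genes lie 8258 bases apart (Ccl2 from 82035571 to 82037453 and Ccl7 from 82045712 to 82047525, GRCm38). Next to them Ccl11, an eosinophil attractant, had 3 counts in CTC replicate 3 and 0 elsewhere, and Ccl12, Ccl8 and Ccl1 had 0 in all libraries. Ccl2 also overlaps the opposite-strand gene Gm17268, which had 0 counts. Beside these values, the fibroblast markers summed highest in CTC replicate 3 (194 CPM) and next in PT replicate 1 (88.7 CPM), but reached 84.5 CPM in CTC replicate 2, where Ccl2 had 2 counts. Among them Lum was at 0 in all libraries and Col1a1 had at most 44 counts. Col3a1 alone gave 125 of the 194 CPM in CTC replicate 3 (3184 counts). Dcn went the other way, at 0.391 CPM in CTC replicate 3 against 33.2 CPM in CTC replicate 2 and 44.0 CPM in PT replicate 1. Of the 10 markers, 3 were highest in CTC replicate 3 and 3 in PT replicate 1. The adipocyte markers summed to 349 CPM in CTC replicate 3, nearly all from Fabp4, and to at most 2.19 CPM elsewhere. The macrophage and monocyte markers summed to 4.58 CPM in CTC replicate 3 and 4.33 CPM in PT replicate 1, below the 11.6 and 23.9 CPM of CTC replicates 1 and 2 and the 5.06 CPM of PT replicate 2. Of these sums, Csf1r alone gave 5.57 and 20.3 CPM in CTC replicates 1 and 2 and 0.196 CPM in CTC replicate 3. Adgre1, C1qa, C1qb, C1qc and Ms4a7 were at 0 throughout. The part of fibroblast- or adipocyte-type transcripts in the Ccl2 and Ccl7 values was not tested.

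**Figure D4:**
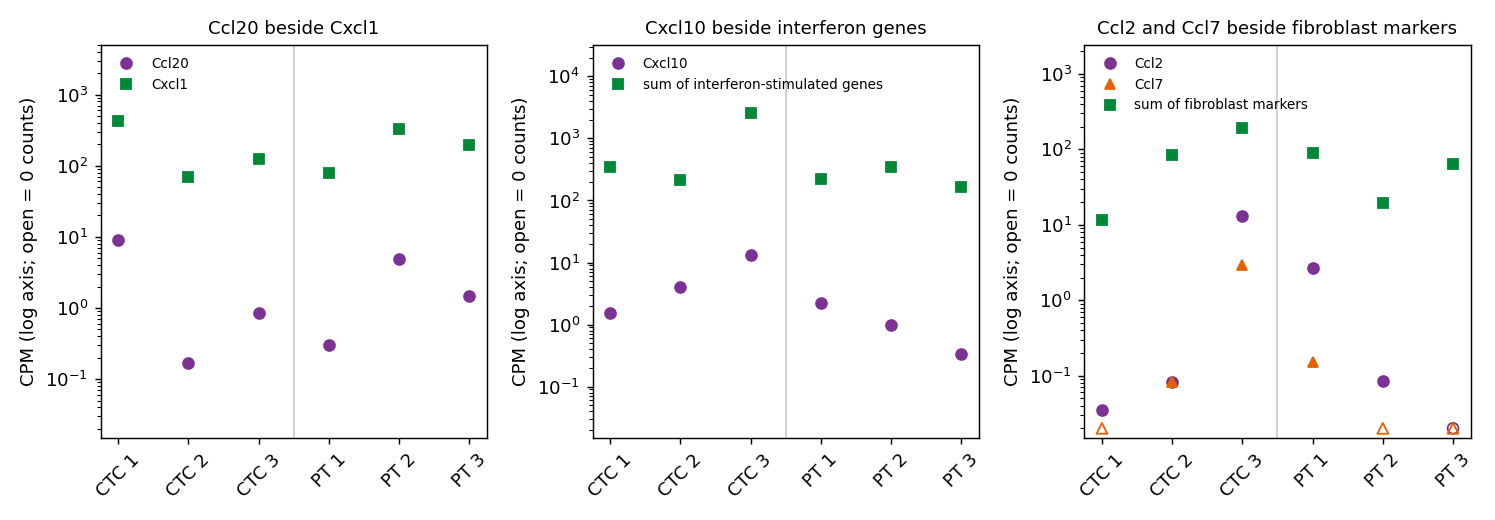
CPM by library (log axes; open symbols are 0 counts, the grey line separates CTC from PT) of Ccl20 with Cxcl1, of Cxcl10 with the sum of 20 interferon-stimulated genes, and of Ccl2 and Ccl7 with the sum of 10 fibroblast markers. Ccl20 and Cxcl1 rank the 6 libraries alike, Cxcl10 and the interferon sum share their highest library, and Ccl2 and Ccl7 are above 0.2 CPM in CTC replicate 3 and, for Ccl2, PT replicate 1.

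Ccl5, a T cell and monocyte attractant also known as RANTES, was low but detected in every library. It was at 1.07, 2.83 and 3.56 CPM in CTC replicates 1, 2 and 3 and at 0.843, 1.93 and 0.747 CPM in PT replicates 1, 2 and 3, from 18 to 91 counts. CTC replicates 2 and 3 were above every PT library and CTC replicate 1 lay below PT replicate 2. The ratio of CTC to PT was 1.26, 1.47 and 4.77 in mice 1, 2 and 3. The log2 fold change was 1.08 (SE 0.67, 95% interval -0.46 to 2.62, edgeR adjusted p = 0.735). The T and NK cell markers, whose cells are a major source of Ccl5, summed to between 0.124 and 2.22 CPM. They were highest in PT replicate 1, mostly from Cd3g with 50 counts. Trac, a T cell receptor chain in the same list, went the other way, with 32, 20 and 9 counts in the CTC libraries and 0, 1 and 0 in the PT libraries, and was not called (DESeq2 adjusted p = 0.069). Cd3d, Cd4, Cd8a, Cd2, Nkg7, Ncr1 and Gzmb were at 0 in all libraries. The part of T or NK cell transcripts in the Ccl5 values was not tested.

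Ccl20, the ligand of Ccr6, spread more widely within the groups than any other tested member. It was at 8.95, 0.167 and 0.861 CPM in CTC replicates 1, 2 and 3 and at 0.307, 4.94 and 1.45 CPM in PT replicates 1, 2 and 3, with 4 to 252 counts. CTC held both the highest and the lowest library. The matched ratio was 29.2 in mouse 1, 0.0338 in mouse 2 and 0.593 in mouse 3. The log2 fold change of 0.58 (SE 1.37, 95% interval -2.59 to 3.75, edgeR adjusted p = 0.920) became -0.51 with the replicate block and -2.11 without CTC replicate 1. No direction can be given for this gene.

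The libraries ranked alike for Ccl20 and the neutrophil chemokine Cxcl1. Of the tested protein-coding genes, Cxcl1 had the log2 CPM pattern most like that of Ccl20 (Pearson r = 0.995 over 6 libraries of 3 mice, given as a description). Cxcl1 was at 424.3, 70.2 and 124.4 CPM in CTC replicates 1, 2 and 3 and at 78.9, 329.1 and 194.5 CPM in PT replicates 1, 2 and 3. The order of all 6 libraries was the same for the 2 genes, from CTC replicate 1 through PT replicates 2 and 3, CTC replicate 3 and PT replicate 1 to CTC replicate 2. Other ligands of the neutrophil receptor Cxcr2 had r with Ccl20 of 0.918 (Cxcl5), 0.912 (Cxcl2), 0.871 (Cxcl3) and 0.504 (Ppbp), a set looked up after the values were seen. Rab1a and Stxbp3, of vesicle traffic, came next over all genes at 0.982 and 0.971. Of 12018 candidate genes, 12 exceeded 0.95 for Ccl20.

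The other tested members were most like genes outside the chemokine families. For Cxcl12 they were St13, Hps1 and Tnfsf9 (r = 0.997, 0.995 and 0.993, with 77 genes over 0.95). For Cx3cl1 they were Nudc, Dhx38 and Pcolce2 (0.990, 0.988 and 0.986), and for Cxcl16 Vbp1, Slc36a4 and Tmem248 (0.991, 0.990 and 0.985). For Cxcl10 they were Sf3b4, Mme and Ddx24 (0.982, 0.982 and 0.972), and for Ccl5 Tcam1, Dync2li1 and Mxi1 (0.963, 0.963 and 0.961). The tested neutrophil chemokines had r with Cxcl16 of 0.938 (Ppbp), 0.861 (Cxcl3), 0.726 (Cxcl5), 0.577 (Cxcl2) and 0.567 (Cxcl1). Likeness to that list was therefore not particular to Ccl20. Among the members themselves Ccl2 and Ccl7 were most alike (0.916), followed by Ccl7 and Cxcl10 (0.866). Ccl2 and Ccl7 failed the filter and had few counts in most libraries. CTC replicate 3 was the highest library for each gene of these pairs.

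The nearest tested genes on the chromosome were described beside the members. Beside Cxcl10, Sdad1 and Nup54 had log2 fold changes of 0.53 and 0.49, and were at 59.7 and 50.6 CPM in CTC replicate 3, below their 79.8 and 76.1 CPM in CTC replicate 1. Beside Cxcl16, Med11 was lower in CTC (-0.64) and Zmynd15 higher (0.98), both without a call in edgeR (adjusted p = 0.726 and 0.727). Beside Cxcl12, Rassf4 had a log2 fold change of -1.92 and Gm7292 one of 0.13. Ccl5 lay between Taf15 (0.28) and Ccl9 (-3.10), another CC chemokine. Ccl20 lay between Agfg1 (-0.34) and Pid1 (-1.59), and Cx3cl1 between Gm45767 (1.18) and Ciapin1 (-0.22).

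Among 21 further leukocyte chemokines, 4 passed the filter, edgeR called none of them, and 8 had 0 counts in all libraries. Ccl9 was at 0.0355, 1.67 and 7.32 CPM in CTC replicates 1, 2 and 3 and at 8.55, 55.2 and 13.9 CPM in PT replicates 1, 2 and 3, without overlap and opposite in sign to Ccl5 (log2 fold change -3.10, edgeR adjusted p = 0.726). With no minimum count, edgeR called Ccl9 (adjusted p = 0.044). Ccl6 was the other tested gene of this list with CTC below PT throughout, at 0.480 ± 0.199 and 0.781 ± 0.220 CPM (SD, n = 3 each). For Ccl6, CTC replicate 1 (17 counts, 0.604 CPM) lay below PT replicate 2 (15 counts, 0.644 CPM) only after scaling. Over all genes tested, 6.16% had CTC below PT throughout. Ccl25, a thymic and gut chemokine, was at 6.86 ± 2.07 and 5.26 ± 2.58 CPM. Of the 7 genes in the neutrophil chemokine list, Cxcl1, Cxcl5 and Cxcl3 had a higher mean CPM than these, while Cxcl2 and Ppbp averaged 4.25 and 4.41 CPM over all libraries. These means were not scaled by gene length, so they do not rank the genes by abundance. Cxcl5 averaged 721 ± 873 CPM for CTC against 312 ± 220 CPM for PT, and Cxcl3 at 122 ± 205 and 14.7 ± 15.1 CPM, and CTC replicate 1 carried both CTC means (1728 and 358.4 CPM). All 5 tested genes of the list had a positive log2 fold change, and without CTC replicate 1 all 5 were negative (median 1.21 against -1.05).

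Receptors for the members were scarce in these cells apart from Ackr3. Of 18 conventional receptors, 6 had 0 counts in all libraries, among them Ccr6, Cx3cr1 and Ccr3, and Ccr2 alone passed the filter. Counts of Ccr2 were 1, 0 and 19 for CTC and 52, 14 and 6 for PT (edgeR adjusted p = 0.769). Ccr1 had at most 24 counts in a library and Cxcr6 at most 3. Cxcr4 had 11 counts in PT replicate 1 and 0 elsewhere. Cxcr3 had 146 counts in CTC replicate 2 (6.09 CPM), 15 in CTC replicate 1, and at most 2 in the other 4 libraries. It failed the filter, and without one edgeR called it (log2 fold change 6.12, adjusted p = 0.019), while DESeq2 did not (0.334). Ackr3, which binds and removes Cxcl12, was at 6.50, 74.4 and 40.7 CPM for CTC against 41.2, 37.7 and 62.3 CPM for PT, with no call (edgeR adjusted p = 0.946). Ccrl2, which presents chemoattractants without signalling, was at 0.746, 0.750 and 9.19 CPM for CTC against 2.53, 53.7 and 8.63 CPM for PT.

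Genes for proteins that release or hold chemokines were measured beside the members. Adam10 and Adam17, which shed Cx3cl1 and Cxcl16, were at 112 ± 47.4 and 78.4 ± 22.04 CPM for CTC against 81.2 ± 15.6 and 63.7 ± 31.0 CPM for PT (SD, n = 3 each). Mmp14, a membrane-bound matrix protease, was at 147 ± 44.6 and 87.5 ± 6.49 CPM, with every CTC library above every PT library (edgeR adjusted p = 0.726). Dpp4, which trims and inactivates several chemokines, had 1 count in all, and Mmp9 failed the filter. All 12 heparan sulfate genes were tested, 8 with a positive and 4 with a negative log2 fold change. The syndecan Sdc1 was at 1401 ± 560 and 941 ± 32.1 CPM, and Sdc4 at 260 ± 84.5 and 495 ± 15.5 CPM, lower in every CTC library (edgeR adjusted p = 0.726).

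Among upstream regulators of chemokine genes, edgeR called none in the NF-kB or interferon signalling list. Without a filter on low counts it called 1 gene in each, Tnfaip3 (adjusted p = 0.046) and Irf7 (0.023), against 0.728% of all genes with a count. Of 15 NF-kB genes, 9 had a positive and 6 a negative log2 fold change (median 0.10), and without CTC replicate 1 the split was 5 and 10 (median -0.20). Tnfaip3, a feedback inhibitor that NF-kB induces, was at 309.7, 69.0 and 32.3 CPM in CTC replicates 1, 2 and 3 and at 19.8, 60.5 and 25.8 CPM in PT replicates 1, 2 and 3. Its highest library, CTC replicate 1, was also the highest for Ccl20 and Cxcl16, and for 24.6% of all genes tested. The next highest for Tnfaip3, CTC replicate 2, was the lowest for Ccl20 (0.167 CPM). The subunit genes Rela and Nfkb2 were at 163 ± 27.2 and 226 ± 82.2 CPM for CTC against 152 ± 34.5 and 246 ± 61.1 CPM for PT. Of 13 interferon signalling genes, 10 were positive and 3 negative (median 0.49), and without CTC replicate 3 the split was 6 and 7 (median -0.16). Jak1, a receptor-bound kinase, was at 132 ± 29.9 and 73.7 ± 9.79 CPM, and Irf3, a factor activated by nucleic acid sensors, at 34.0 ± 6.30 and 68.7 ± 10.8 CPM, each without overlap (edgeR adjusted p = 0.726 for each). Over the 76 tested genes of these 9 pathway lists, 9 lay apart between the groups (11.8%), 4 above and 5 below in CTC, against 12.1% of all genes tested.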

How the data were processed

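RNA from 3 CTC and 3 PT libraries was measured; per the labels' protocols, 100 ng of total RNA entered an mRNA library kit. The authors deposited raw counts per Ensembl gene with gene lengths in bases. HISAT2 and the builds GRCm38 and mm10 are named in the submitters' processing notes; no source used here gives the counter, annotation release or strand setting. The 9 members had the same coordinates in GENCODE M21. Counts were tested with edgeR 4.0.16 (R 4.3.3; glmQLFit, glmQLFTest, TMM, filterByExpr, Benjamini-Hochberg over 13874 genes, threshold 0.05); SEs came from the F statistic. CPM used the total of the genes tested times the TMM factor, and log2 CPM a prior count of 2. A count of 3, taken as the limit that 0 allows, was 0.107 to 0.129 CPM and covers counting error only. DESeq2 1.42.0 and limma-voom (limma 3.58.1) were alternatives, as were a replicate block, RLE and upper-quartile scaling, omitting the filter, requiring 1 CPM in 3 libraries, and leaving out each library. The 3 tools were tested on simulated data.

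The labels place same-numbered libraries in 1 mouse, so the numbers pair the samples; their deviations from the group means correlated at -0.074, 0.211 and 0.277 for mice 1, 2 and 3 over 9413 genes. No 2 libraries were near sampling noise (chi-square per degree of freedom of at least 90.4). Members and lists were chosen with earlier results of these data known. Named from each list were called genes or, as there were none, the gene with the smallest p and the 2 most abundant, plus the members' receptors (not all are reported here), the 3 genes most alike in pattern and the nearest tested neighbours; other list genes were named after their values were seen. A symbol on 2 entries was taken from the entry with more counts.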

Additional observations from a re-analysis of the deposited data

How the results depend on the processing

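No gene (0) was called in the main test, with the replicate block, with RLE or upper-quartile scaling, by limma-voom, with the filter of 1 CPM in 3 libraries and without each library in turn (0 to 0). DESeq2 called 91 genes (CTC above PT for 43, below for 48) and edgeR without a filter 199 (121 and 78). The cause was not tested, and neither called a member. DESeq2 gave no adjusted p for Ccl2 and Cxcl9, and so could not call them. Among the 117 listed pathway genes, some without a count, edgeR without a filter called 14, against 0.728% of all genes with a count. This alternative was added after the data were seen, and every other setting called 0. Of the 14, 10 were interferon-stimulated genes, each highest in CTC replicate 3, as was Irf7. The rest were Tnfaip3, Cxcr3 and Ccl9, highest in CTC replicate 1, CTC replicate 2 and PT replicate 2. DESeq2 gave no p-value for Irf7 and several interferon-stimulated genes of these 14, Gbp3 and Oasl2 among them, and so could not call them. The replicate block changed no call. It turned the log2 fold change of Ccl20 from 0.58 to -0.51 and that of Cxcl16 from 0.21 to -0.049; limma-voom gave -0.098 and -0.041, and the cause was not tested. Without each library in turn, log2 fold changes ranged from -2.11 to 1.89 for Ccl20, -0.73 to 0.57 for Cxcl16, 0.73 to 1.63 for Ccl5, 1.22 to 3.26 for Cxcl10, 0.81 to 1.75 for Cxcl12 and 0.23 to 0.39 for Cx3cl1. The last 4 kept their sign in all 13 alternatives, with adjusted p-values from 0.176 to 1.00. The untested differences of mean log2 CPM ranged from -1.27 to 2.46 for Ccl2, 0.00069 to 2.63 for Ccl7 and -0.83 to 0.50 for Cxcl9. With all libraries this difference was -0.012 for Cxcl9. The edgeR log2 fold change of Cxcl9 without a filter, a different estimate, was 0.48. Tested members with groups apart numbered 1, 0 with RLE scaling, and 1 to 3 without 1 library; pathway genes apart numbered 9, and 13 to 22 without 1 library, where fewer libraries make separation easier. Depth limits Cxcl9, and with 3 libraries a group the interval of Ccl20 spans both directions.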
